A study of Mus musculus with 7 samples.

Results

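The MHC class II presentation genes were read in bone marrow libraries labelled as Aim2 knock-out or wild type. Aim2 encodes a sensor of cytosolic DNA. The set held 10 genes, chosen by their role in the pathway: H2-Aa, H2-Ab1 and H2-Eb1 for the class II chains, Cd74 for the invariant chain, Ciita for the transactivator, H2-DMa, H2-DMb1 and H2-DMb2 for the peptide exchange factor DM, and H2-Oa and H2-Ob for its inhibitor DO. They were chosen with earlier results of these data known. All 10 had enough reads to be tested, among 14238 tested genes of 35498 listed. The study compared 3 libraries from female mice labelled as an Aim2 knock-out (KO) with 4 from wild-type (WT) females, all at 5 to 6 months of age. The labels do not give the strain, the deleted part of Aim2, or whether the libraries came from separate mice. The p-values therefore measure only how far these libraries spread, which may be technical. The marrow was bulk tissue, and the class II genes were therefore read beside the level of B cell genes.

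Class II molecules are dimers of an alpha and a beta chain that show peptides from the endosome to CD4 T cells. In the endoplasmic reticulum the chains are held by the invariant chain, whose last fragment, CLIP, is later removed from the groove by DM, while DO restrains DM, chiefly in B cells. CIITA, the product of Ciita, does not bind DNA itself but joins RFX, CREB and NF-Y factors already seated on the X and Y boxes of class II promoters. In marrow, B cells, dendritic cells and some monocytes and macrophages carry class II.

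Promoter sequences are shown because class II genes are known to share the X and Y boxes. RefSeq promoter windows of 300 bases (250 before to 50 after the start, build GRCm38.p6) were at hand for 7 of the 10 genes, in 8 windows because H2-DMa has more than one. H2-Ab1, Ciita and Cd74 had none. Stretches of 64 bases are shown for the 6 genes whose window held a Y-box core, written 5′ to 3′ on the gene's own strand. Capitals mark the Y-box core TGATTGG, whose reverse complement contains CCAAT, and, where it lay upstream in the same orientation, the X-box core ACNGATG.
H2-Aa (chr17:34287858-34287921, minus strand): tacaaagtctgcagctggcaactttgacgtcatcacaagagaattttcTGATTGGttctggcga
H2-Eb1 (chr17:34305758-34305821, plus strand): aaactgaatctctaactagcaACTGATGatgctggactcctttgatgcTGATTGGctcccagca
H2-DMb1 (chr17:34153080-34153143, plus strand): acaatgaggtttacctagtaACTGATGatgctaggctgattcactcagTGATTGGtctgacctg
H2-DMb2 (chr17:34145109-34145172, plus strand): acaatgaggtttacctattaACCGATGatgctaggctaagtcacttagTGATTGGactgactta
H2-Oa (chr17:34092286-34092349, plus strand): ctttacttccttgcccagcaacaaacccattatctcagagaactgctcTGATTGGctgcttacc
H2-Ob (chr17:34238798-34238861, plus strand): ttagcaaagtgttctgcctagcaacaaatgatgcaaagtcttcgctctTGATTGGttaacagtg

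Both cores were chosen after these sequences had been seen, were searched on both strands and do not overlap each other. The Y core stood in 6 of the 7 genes with a window (all but H2-DMa) and in 7.82% of 32851 windows of 27025 genes. The X core stood on either strand in 5 of the 7 genes and in 9.85% of all windows. The ordered pair, an X core followed after 10 to 30 bases by a Y core, was found in H2-Eb1 with a spacer of 20 bases and in H2-DMb1 and H2-DMb2 with a spacer of 21. Only 10 of all windows (0.0304%) held that pair. They belonged to H2-Eb1, H2-Eb2, H2-DMb1, H2-DMb2, BC051142, Gm16958, Gm52728, Gmnc, H2-M10.4 and Hnrnpa1. These matches describe letters in the windows and are no measure of binding. Each core is a fixed string, so a window without a match, such as that of H2-Ob for the X core, may still hold a box with other letters. The same holds for the ordered pair in H2-Aa, H2-Oa and H2-Ob. The H2-DMa windows start at 34122582 and 34125268 on chromosome 17, whereas 90.5% of H2-DMa reads were assigned to a transcript that starts at 34135628, so neither window covers its main start.

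Except for Ciita on chromosome 16 and Cd74 on chromosome 18, the genes lie on chromosome 17 (GRCm38), from H2-Oa at 34092340 to the end of H2-Eb1 at 34316674. Aim2 itself had 157, 47 and 59 reads in KO libraries 1 to 3 and 601, 573, 535 and 533 in WT libraries 1 to 4. Depth was even, at 20300468 to 21099972 estimated reads per library. Haemoglobin genes, which mark red cell precursors, took 11.3 to 13.7% of reads in KO and 13.8 to 19.9% in WT. The highest share was in WT library 1, which also had the lowest scaling factor (0.918). Levels are CPM, reads scaled to a common library size, unless TPM, which also corrects for transcript length, is named.

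All 10 class II genes had a lower fitted level in KO than in WT, and none passed the threshold of an adjusted p under 0.05 (quasi-likelihood test of edgeR, Benjamini-Hochberg adjustment over all genes). That threshold was passed by 0.646% of all tested genes, and by 0.169% in the direction lower in KO. At an unadjusted p under 0.05, 7 of the 10 genes were lower, against 5.01% of all genes, and a negative fold change was fitted for 52.7% of all genes. The median log2 fold change of the 10 genes was -0.65, against -0.01 for all genes, of which the middle 50% lay between -0.12 and 0.11. The other tools called some of them: DESeq2 called 4 lower (1.03% of all genes), namely H2-Ab1, H2-Eb1, H2-DMb2 and H2-Ob, and limma voom with sample weights called H2-Ob (0.857% of all genes). The groups did not overlap in CPM for 4 genes, H2-Eb1, H2-DMb2, H2-Oa and H2-Ob, against 5.94% of all genes that were lower without overlap. By TPM only H2-Ob stayed without overlap, against 1.39% of all genes, since KO library 1 then stood above WT library 1 for H2-Eb1 (176 against 130 TPM), H2-DMb2 (15.9 against 14.5 TPM) and H2-Oa (8.75 against 8.43 TPM). In bulk tissue, fewer cells that carry class II and less class II RNA per cell cannot be told apart.

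**Figure D1:**
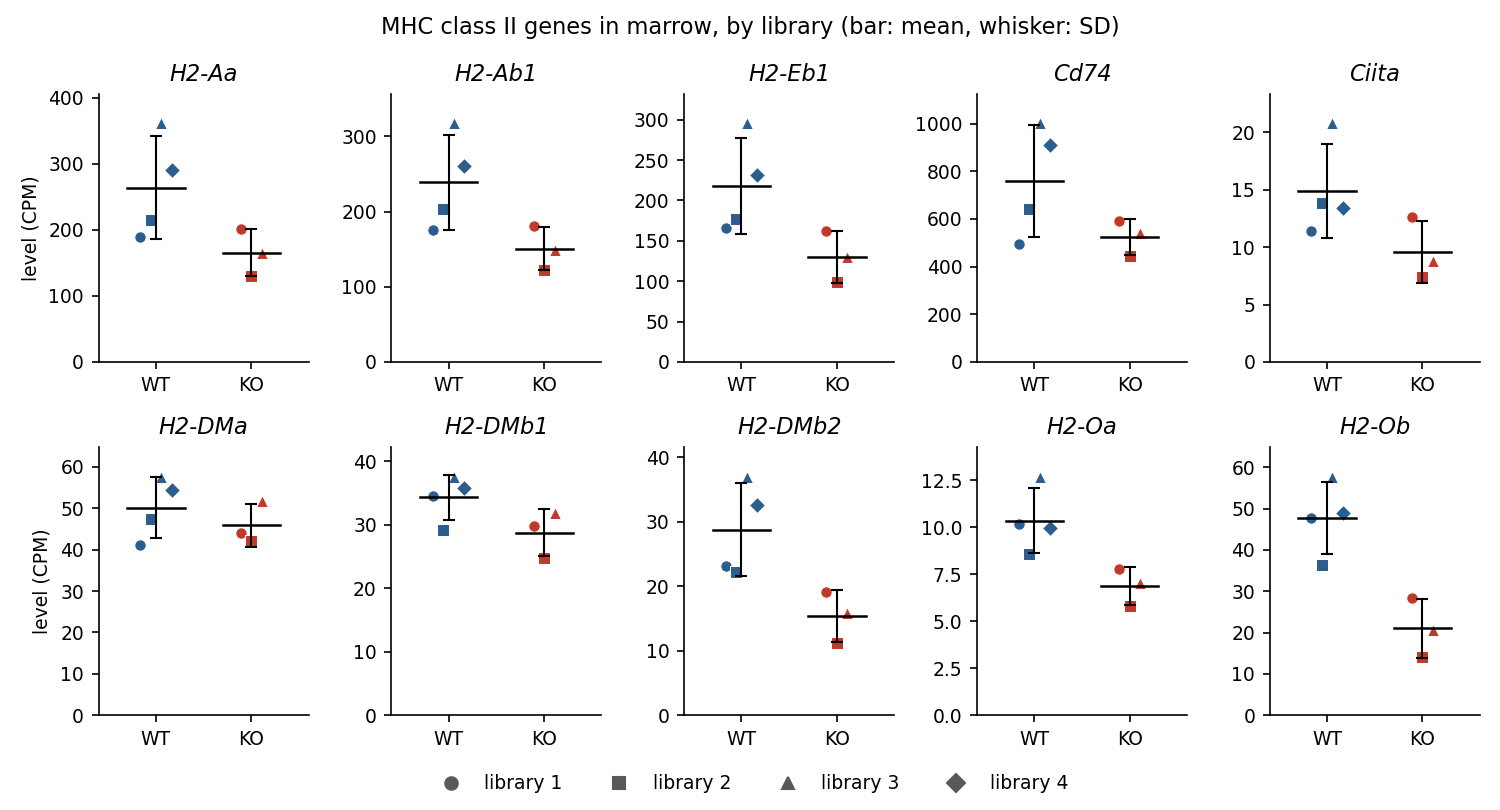
Level (CPM, linear axis from 0) of each class II gene in the 4 WT and 3 KO libraries; the bar is the mean, the whisker the SD, and the marker shape gives the library number. WT library 3 is the highest point in every panel, KO library 2 is the lowest in every panel but H2-DMa, and the groups stand apart in CPM for H2-Eb1, H2-DMb2, H2-Oa and H2-Ob.

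Of the chains, H2-Aa encodes the alpha chain of the A dimer. Its level was 201, 129 and 165 CPM in KO libraries 1 to 3 and 190, 214, 361 and 290 CPM in WT libraries 1 to 4. KO library 1 stood above WT library 1, so the groups overlapped. The means were 165 ± 35.9 CPM (SD, n = 3) and 264 ± 77.6 CPM (SD, n = 4), which gave a log2 fold change of -0.67 ± 0.24 (SE) with an edgeR adjusted p of 0.339.

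H2-Ab1 encodes the beta chain of the same dimer. It had 180, 123 and 149 CPM in KO and 176, 203, 317 and 260 CPM in WT, with the same pair of libraries in overlap. The log2 fold change was -0.67 ± 0.21 (edgeR adjusted p = 0.284, DESeq2 adjusted p = 0.0400). The pair kept step: reads of H2-Aa per read of H2-Ab1 lay between 1.06 and 1.14 in all 7 libraries.

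H2-Eb1 encodes the beta chain of the E dimer. Its values were 162, 98.5 and 130 CPM in KO and 166, 177, 295 and 232 CPM in WT. Every KO library was below every WT library, though KO library 1 and WT library 1 were close. The log2 fold change was -0.74 ± 0.23 (edgeR adjusted p = 0.268, DESeq2 adjusted p = 0.0273). H2-Ea-ps, the pseudogene at the locus of the alpha chain that would pair with it, had 0 reads in every KO library and at most 1 in a WT library. H2-Eb2, a further beta chain gene with few reads, had between 34 and 100 reads per KO library and between 73 and 145 per WT library, with a log2 fold change of -0.65 ± 0.35 (edgeR adjusted p = 0.540).

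Cd74, the invariant chain gene, had the most reads of the set, from 9191 in WT library 1 to 20653 in WT library 3. It stood at 591, 444 and 542 CPM in KO and at 493, 642, 1001 and 908 CPM in WT. WT library 1 was below KO libraries 1 and 3, and the WT values spread over a wider range than the KO values. The log2 fold change was -0.53 ± 0.24 (edgeR adjusted p = 0.448, DESeq2 adjusted p = 0.241). Reads of Cd74 per read of H2-Ab1 were 3.28, 3.62 and 3.63 in KO and 2.80, 3.16, 3.15 and 3.49 in WT, and the groups overlapped.

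Ciita, the transactivator gene, was the lowest of the set per length. It had 12.6, 7.40 and 8.78 CPM in KO and 11.4, 13.9, 20.8 and 13.4 CPM in WT, from 154 to 429 reads per library. KO library 1 stood above WT library 1. The log2 fold change of -0.63 ± 0.24 (edgeR adjusted p = 0.376) lay between those of Cd74 and H2-Aa.

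The peptide exchange genes were uneven. H2-DMa, the alpha chain of DM, had 43.9, 42.0 and 51.7 CPM in KO and 41.1, 47.3, 57.7 and 54.5 CPM in WT, and its lowest value was in WT library 1. Its log2 fold change of -0.13 ± 0.13 (edgeR adjusted p = 0.765) was the smallest of the set, and it turned to 0.04 on the log2(TPM + 0.1) and log2(TPM + 1) scales, on which the median of all genes was 0.13 and 0.10. H2-DMb1, a DM beta chain, had 29.8, 24.7 and 31.8 CPM in KO and 34.6, 29.2, 37.6 and 35.8 CPM in WT, with KO libraries 1 and 3 above WT library 2. Its log2 fold change was -0.25 ± 0.12 (edgeR adjusted p = 0.459).

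H2-DMb2, the second DM beta chain gene, differed more. It had 19.2, 11.1 and 15.9 CPM in KO and 23.2, 22.3, 37.0 and 32.6 CPM in WT, and no KO library reached a WT library. The log2 fold change was -0.90 ± 0.24 (edgeR adjusted p = 0.180, DESeq2 adjusted p = 0.00647). H2-DMb1 and H2-DMb2 are close copies: 37.6% of the 31-base words of the main H2-DMb1 transcript also occur in that of H2-DMb2, with 94.4% identity over 1255 aligned positions, so the split of reads between them is uncertain. Summed into 1 gene they gave a log2 fold change of -0.51 (edgeR adjusted p = 0.248).

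The DO genes, known for expression mainly in B cells, had lower CPM in every KO library than in every WT library. H2-Ob, the DO beta chain, had 28.4, 14.1 and 20.5 CPM in KO and 47.7, 36.4, 57.8 and 48.9 CPM in WT. The KO mean of 21.0 ± 7.15 CPM (SD, n = 3) compared with a WT mean of 47.7 ± 8.77 CPM (SD, n = 4), and KO stood at 44.0% of WT by the fit. This was the largest difference of the set, a log2 fold change of -1.18 ± 0.24 (edgeR adjusted p = 0.0867, DESeq2 adjusted p = 3.1e-05, voom adjusted p = 0.0291). H2-Oa, the DO alpha chain, had 7.79, 5.81 and 7.01 CPM in KO and 10.2, 8.58, 12.7 and 9.95 CPM in WT. Its log2 fold change was -0.59 ± 0.16 (edgeR adjusted p = 0.197, DESeq2 adjusted p = 0.0582).

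KO library 2 bore on the count of lower genes. Without it, 3 of the 10 genes were lower at an unadjusted p under 0.05 in edgeR, and without any other single library 6 to 8 were. No gene passed the adjusted threshold in any of these fits, in which the lowest adjusted p of a class II gene, that of H2-Ob, ranged from 0.0554 to 0.207.

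Ratios of reads between the genes need no scaling between libraries. These 6 ratios were chosen after their values had been seen and carry no test. They do not set DO as a whole against DM, since the fold change of H2-DMb2 (-0.90) was larger than that of H2-Oa (-0.59). Reads of H2-Ob per read of H2-DMb1 were 0.952, 0.569 and 0.646 in KO and 1.38, 1.25, 1.54 and 1.36 in WT, a log2 difference of -0.97. The groups did not overlap. This ratio, too, depends on the uncertain split of reads between H2-DMb1 and H2-DMb2. Reads of H2-Oa per read of H2-DMa were 0.177, 0.138 and 0.136 in KO and 0.248, 0.181, 0.220 and 0.183 in WT, a log2 difference of -0.46, with KO library 1 just below WT library 2. Reads of H2-DMb2 per read of H2-DMb1 were 0.643, 0.450 and 0.499 in KO and 0.669, 0.763, 0.984 and 0.908 in WT, a log2 difference of -0.65, under the limit on these copies given above. Leaving out 1 library at a time gave log2 differences of -1.18 to -0.81, -0.59 to -0.38 and -0.79 to -0.54 for these ratios in the same order.

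**Figure D2:**
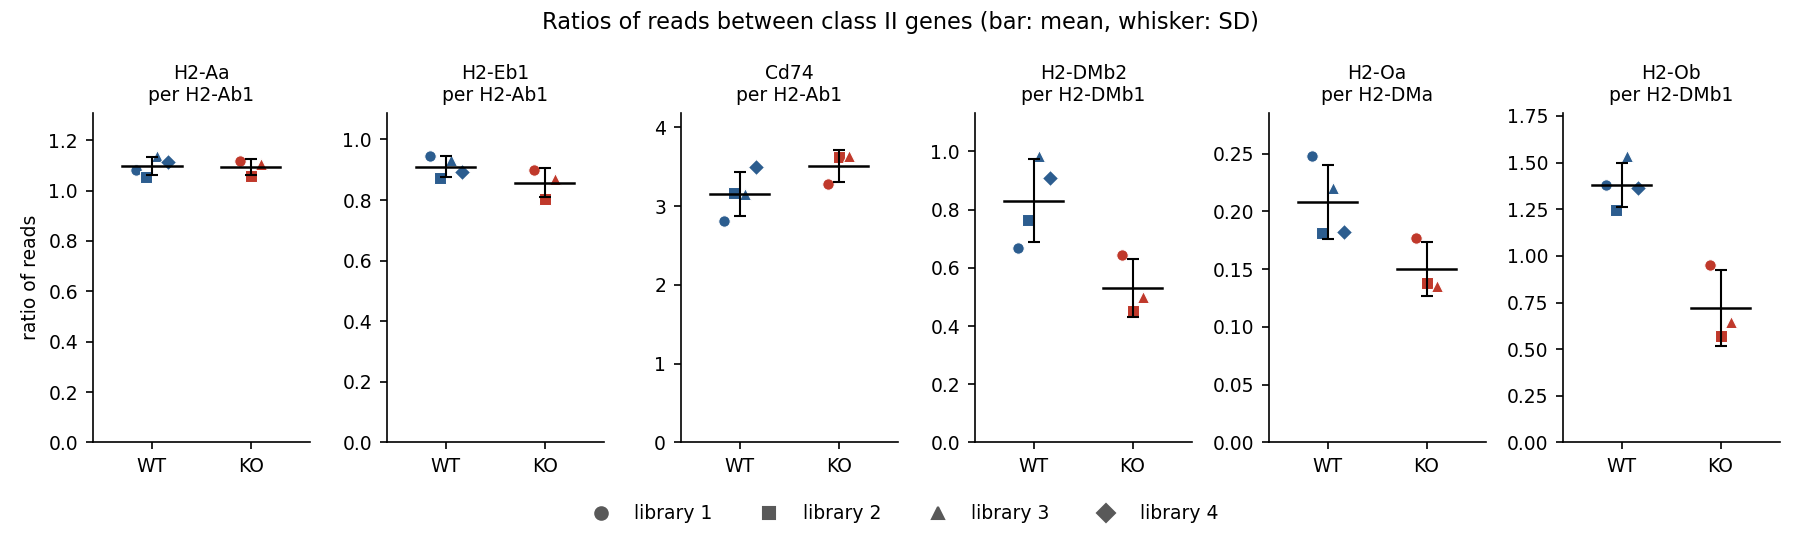
Ratio of estimated reads between pairs of class II genes (linear axes from 0) in the 4 WT and 3 KO libraries; bars are means, whiskers SD, and marker shapes library numbers. H2-Aa per H2-Ab1 is nearly flat, and the H2-Ob per H2-DMb1 ratio lies between 0.569 and 0.952 in KO and between 1.25 and 1.54 in WT.

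Per length, Cd74 led the set in WT at 643 ± 237 TPM (SD, n = 4), followed by H2-Aa at 262 ± 92.3 TPM, H2-Ab1 at 226 ± 73.2 TPM and H2-Eb1 at 206 ± 73.8 TPM. H2-DMa at 47.2 ± 10.5 TPM, H2-DMb1 at 33.1 ± 6.19 TPM, H2-Ob at 27.8 ± 7.09 TPM and H2-DMb2 at 21.3 ± 6.67 TPM formed a lower tier. H2-Oa at 10.1 ± 2.22 TPM and Ciita at 2.40 ± 0.813 TPM were lowest. In KO the means followed the same order, from 484 ± 92.1 for Cd74 to 1.73 ± 0.513 for Ciita (SD, n = 3). Among neighbours in this order, the ranges over the 7 libraries were separate only between H2-Eb1 and H2-DMa and between H2-Oa and Ciita. Within a library, however, the first of each pair was higher in 7 of 7 libraries, except that H2-DMa exceeded H2-DMb1 in 6 and H2-Ob exceeded H2-DMb2 in 6.

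B cell genes also had lower fitted levels in KO. The 10 pan-B genes, such as Cd79a and Pax5, had a median log2 fold change of -0.97, all 10 below 0. At an unadjusted p under 0.05, 9 were lower (5.01% of all genes). None passed the edgeR threshold, while DESeq2 called 8 (1.03% of all genes) and voom called 6 lower (0.857% of all genes). Cd79a, part of the B cell receptor complex, had a KO mean of 59.7 ± 13.9 CPM (SD, n = 3) against 118 ± 21.8 CPM (SD, n = 4) in the controls, so its log2 fold change was -0.98 ± 0.19 (edgeR adjusted p = 0.0826). Pax5, the B lineage identity factor, had a log2 fold change of -1.21 ± 0.22 (edgeR adjusted p = 0.0684). The summed pan-B level was 231 to 347 CPM in KO and 436 to 707 CPM in WT.

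All 9 mature B genes were lower at an unadjusted p under 0.05 (5.01% of all genes). Their median log2 fold change was -0.92. None passed the edgeR threshold, while 7 passed with DESeq2 (1.03% of all genes) and 5 with voom (0.857% of all genes). Fcer2a, which encodes the low-affinity IgE receptor CD23, had a log2 fold change of -1.56 ± 0.30 (edgeR adjusted p = 0.0812) and Cr2, the complement receptor CD21, one of -1.59 ± 0.34 (edgeR adjusted p = 0.103). The summed mature B level was 103 to 195 CPM in KO and 243 to 352 CPM in WT. The 6 pro- and pre-B genes had a median of -0.95, and 3 were lower at an unadjusted p under 0.05. Of them 0 were called by edgeR, 1 by DESeq2 and 1 by voom, against the same shares of all genes. Il7r, the interleukin-7 receptor chain, had a log2 fold change of -1.16 ± 0.23 (edgeR adjusted p = 0.0826) and Rag1, a recombinase of receptor genes, one of -1.07 ± 0.38 (edgeR adjusted p = 0.342).

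**Figure D3:**
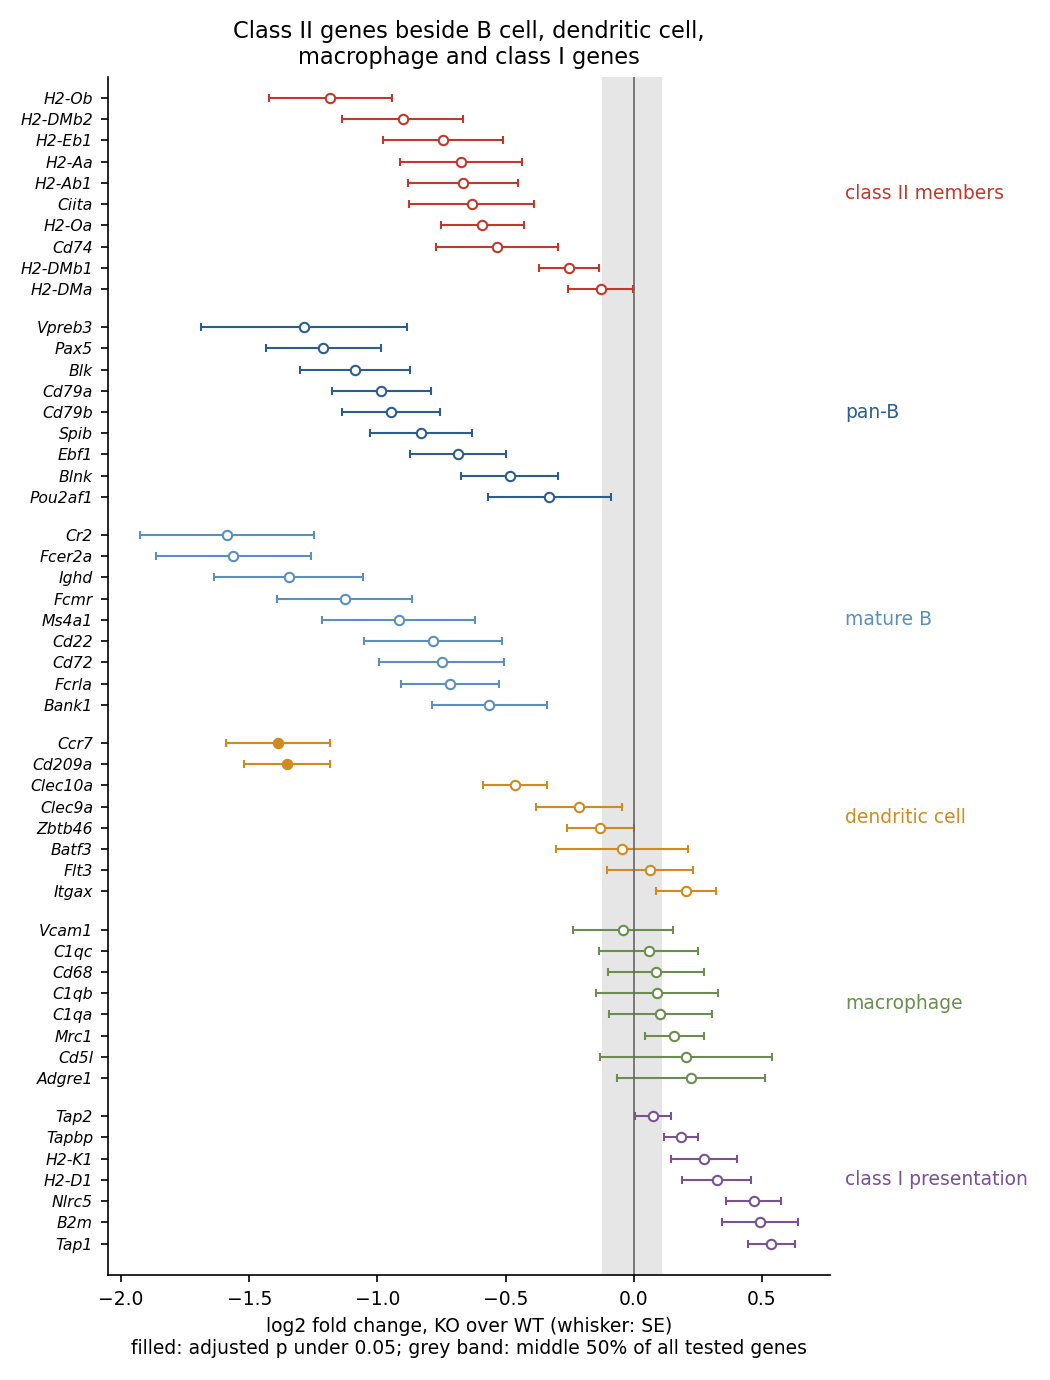
Fitted log2 fold change, KO over WT, with its SE, for the class II genes and for B cell, dendritic cell, macrophage and class I genes; filled points have an edgeR adjusted p under 0.05 and the grey band is the middle 50% of all tested genes. The class II genes span -1.18 (H2-Ob) to -0.13 (H2-DMa), the pan-B genes shown are all below 0, and only Ccr7 and Cd209a are filled.

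To set the class II genes against B cells, the mean log2(CPM + 0.5) of the pan-B genes was taken as an index in each library. It was 4.75, 4.24 and 4.86 in KO and 5.48, 5.15, 5.46 and 5.89 in WT, a difference of -0.88 with no overlap (two-sided exact permutation test, p = 0.0571, the smallest that 3 against 4 libraries allow). After subtraction of this index almost every gene stands higher in KO: 98.8% of all tested genes had a difference above 0, and 76.8% were higher without overlap. Of the class II genes, 8 of 10 were above 0 and only H2-DMa and H2-DMb1 were higher without overlap. For the other 8 class II genes the KO and WT libraries overlapped on this scale. The values of H2-DMb1 and H2-DMb2 relative to any B cell index fall under the limit on these copies given above. For their sum, KO library 3 (31.8 and 15.9 CPM, index 4.86) lies below WT library 3 (37.6 and 37.0 CPM, index 5.46) after subtraction. The groups thus overlap for the sum, which does not depend on the split. Whether the separation of H2-DMb1 rests on the split was not tested.

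The genes spread over a wide range on this scale. H2-DMa relative to the pan-B index was 0.72, 1.17 and 0.84 in KO and -0.10, 0.43, 0.40 and -0.11 in WT, a difference of 0.76 (two-sided exact permutation p = 0.0571). H2-DMb1 differed by 0.63 (two-sided exact permutation p = 0.0571). Cd74 differed by 0.39, H2-Oa by 0.32, Ciita by 0.27, H2-Ab1 by 0.23, H2-Aa by 0.23 and H2-Eb1 by 0.14, each with overlapping groups and exact permutation p from 0.114 to 0.571. H2-DMb2 differed by -0.00 (exact permutation p = 1). H2-Ob was the only gene further below 0, at -0.32, from 0.10, -0.37 and -0.47 in KO and 0.11, 0.05, 0.41 and -0.26 in WT (exact permutation p = 0.171), with overlapping groups. These are 10 comparisons, and their p-values are not adjusted.

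With the mature B genes as the index, 9 of 10 class II genes were above 0 (99.3% of all genes), and H2-Aa, H2-Ab1, Cd74, Ciita, H2-DMa and H2-DMb1 were higher without overlap (77.8% of all genes), each with an exact permutation p of 0.0571. H2-DMa differed by 0.91, H2-DMb1 by 0.78, Cd74 by 0.54 and H2-Aa by 0.38. H2-Ob stood at -0.17 and H2-DMb2 at 0.15, both with overlap. With the pro- and pre-B genes as the index, whose own level overlapped between the groups (difference -0.76, two-sided exact permutation p = 0.171), 8 of 10 class II genes were above 0 (98.5% of all genes) and none was higher without overlap (12.2% of all genes). H2-DMa then differed by 0.64 (exact permutation p = 0.114), H2-DMb1 by 0.51 (exact permutation p = 0.229), H2-DMb2 by -0.12 and H2-Ob by -0.44 (exact permutation p = 0.457). H2-DMa had the highest and H2-Ob the lowest difference. Each index shifts the differences of all genes by the same amount, so their order over these 3 indices was fixed in advance. Whether B cell number accounts for the class II levels was not tested.

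**Figure D4:**
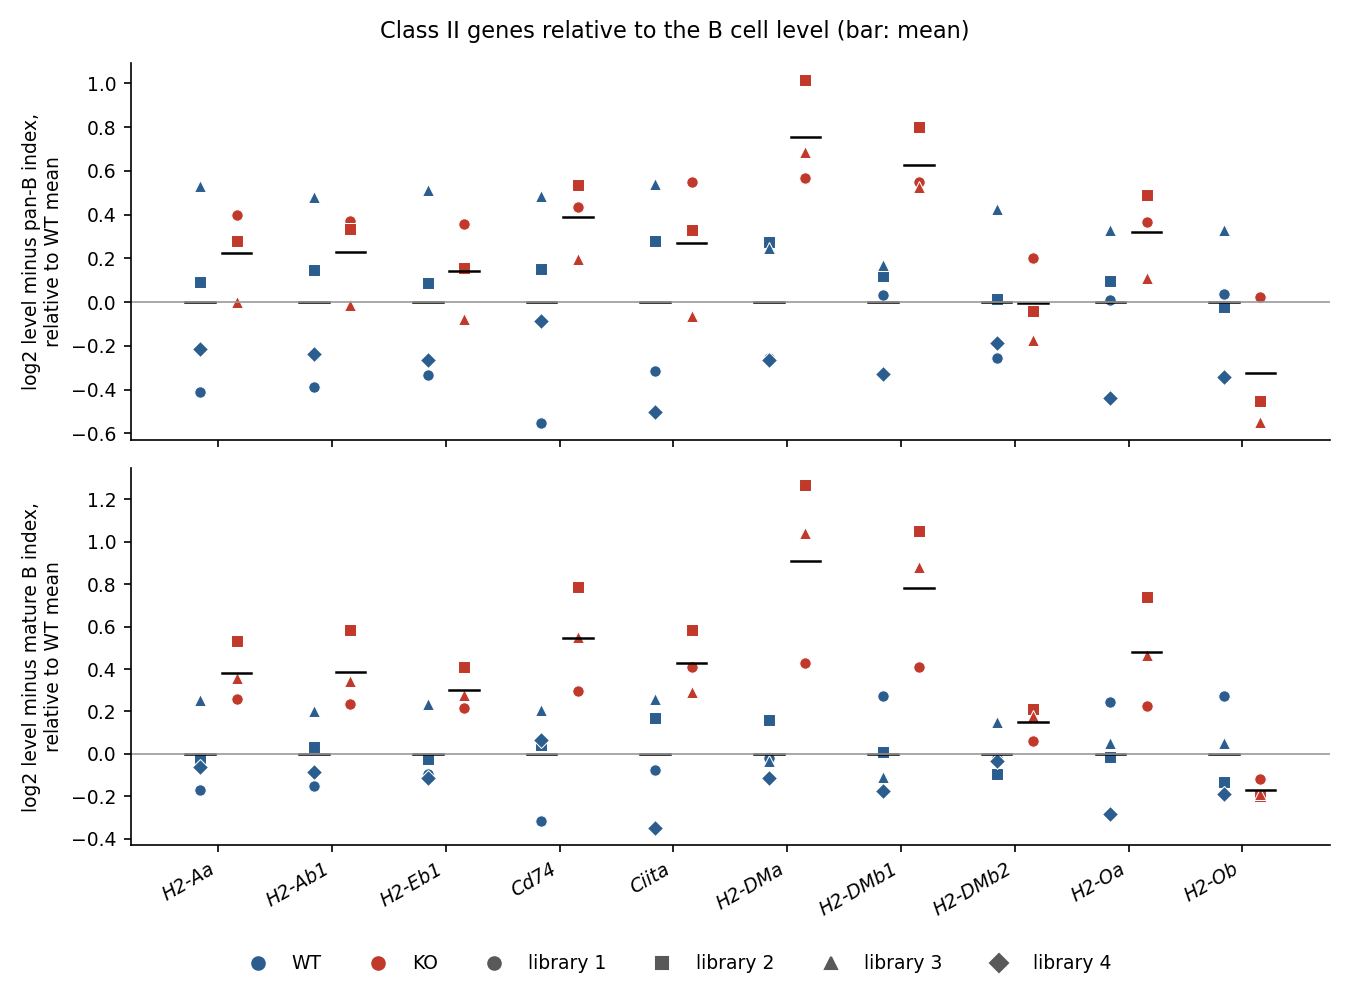
Log2 level of each class II gene minus the pan-B index (top) or the mature B index (bottom) in each library, shifted so that the WT mean is 0; bars are group means and marker shapes library numbers. KO libraries stand above all WT libraries for H2-DMa and H2-DMb1 in both panels, and H2-Ob is the only gene whose KO mean is below 0 in both.

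Other cells of marrow can carry class II, and their marker lists differed from the B cell lists. Of 8 tested dendritic cell genes (Xcr1 had too few reads), edgeR called 2 lower in KO (0.169% of all genes). The median log2 fold change was -0.17. Cd209a, a lectin of monocyte-derived dendritic cells, fell by 1.35 on the log2 scale, from 5.96 ± 0.812 CPM (SD, n = 4) to 2.33 ± 0.277 CPM (SD, n = 3; edgeR adjusted p = 0.0206). Ccr7, a homing receptor of mature dendritic cells that B and T cells also carry, fell by 1.39 (edgeR adjusted p = 0.0324). Each of these calls held in 2 of 7 fits that leave out 1 library, with adjusted p up to 0.0913 and 0.114. Of the 8 tested genes 6 had a fold change below 0 and 2 above it, Itgax (0.21 ± 0.12) and Flt3 (0.06 ± 0.17). The summed dendritic cell level was 74.6 to 89.9 CPM in KO and 91.8 to 102 CPM in WT, without overlap. That sum includes Ccr7, at a mean of 4.02 CPM in KO and 10.5 CPM in WT. Ccr7 held 4.12 of the 89.9 CPM in KO library 3 and 8.26 of the 91.8 CPM in WT library 1. Without Ccr7 these libraries would change order, so the separation depends on a gene that other cells also carry. The part of dendritic cells in the class II levels was not tested.

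The macrophage list, with 0 of 8 genes called by edgeR, DESeq2 or voom and 0 at an unadjusted p under 0.05, had a median log2 fold change of 0.10 and summed levels of 1089 to 1437 CPM in KO and 813 to 1532 CPM in WT. Its genes with the smallest p were Mrc1, the mannose receptor, at 0.16 ± 0.12 and Adgre1, which encodes F4/80, at 0.22 ± 0.29 (log2 fold change). Of 7 monocyte genes 1 rose, where edgeR called 0.646% of all genes in either direction. At an unadjusted p under 0.05, 6 were higher (6.45% of all genes), and the median was 0.60. Cd300e, a receptor of patrolling monocytes, rose from 1.48 ± 0.329 CPM (SD, n = 4) to 7.88 ± 2.44 CPM (SD, n = 3), a log2 fold change of 2.41 ± 0.26 (edgeR adjusted p = 0.0111) that passed in 6 of 7 fits with 1 library left out. The plasmacytoid dendritic cell list had 0 of 6 genes called by any of the tools and 0 at an unadjusted p under 0.05, with a median of 0.06; Bst2 stood at 0.30 ± 0.15 and Ccr9, a chemokine receptor, at 0.24 ± 0.25.

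Plasma cells, which switch off Ciita as they mature, had 0 of 6 genes called by edgeR, 2 higher by DESeq2 (1.82% of all genes) and 0 by voom. At an unadjusted p under 0.05, 5 were higher (6.45% of all genes), and the median was 0.53. Xbp1, a factor of secretory cells, stood at 0.49 ± 0.13 (edgeR adjusted p = 0.181) and Prdm1, which encodes the repressor BLIMP-1, at 0.59 ± 0.16 (edgeR adjusted p = 0.204). The summed plasma cell level was 687 to 853 CPM in KO and 426 to 649 CPM in WT. T cells mostly lack class II in mice. Of 6 T cell genes, 0 were called by edgeR, 2 lower by DESeq2 (1.03% of all genes) and 1 by voom (0.857% of all genes). At an unadjusted p under 0.05, 3 were lower (5.01% of all genes), and the median was -0.34. The co-receptor genes Cd8a and Cd4 stood at -0.92 ± 0.22 and -0.70 ± 0.18 (edgeR adjusted p = 0.144 and 0.172).

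Except for Cd40, fitted differences were small in the machinery around class II. All 7 genes of the RFX, NF-Y and CREB factors had fold changes below 0, but with a median of only -0.08, and 0 were called by edgeR, DESeq2 or voom or at an unadjusted p under 0.05. Rfxap, an RFX subunit, stood at -0.22 ± 0.10 and Creb1 at -0.11 ± 0.09 (edgeR adjusted p = 0.465 and 0.693). Of 9 genes for antigen processing and turnover of class II, 0 passed in edgeR and in voom, with a median of -0.02. DESeq2 called 1 higher (1.82% of all genes), also the only gene higher at an unadjusted p under 0.05 (6.45% of all genes). That gene was Ctsl, the protease cathepsin L, with a WT mean of 137 ± 3.83 CPM (SD, n = 4), a KO mean of 162 ± 5.95 CPM (SD, n = 3) and a log2 fold change of 0.24 ± 0.06 (edgeR adjusted p = 0.155, DESeq2 adjusted p = 0.00667). Sppl2a, the intramembrane protease that clears the Cd74 stub, stood at 0.13 ± 0.08 (edgeR adjusted p = 0.608). Of 3 co-stimulation genes, 0 passed with any of the tools and 1 was lower at an unadjusted p under 0.05 (5.01% of all genes). That was Cd40, which activates antigen-presenting cells, with a log2 fold change of -0.58 ± 0.24 (edgeR adjusted p = 0.424). Cd86 had one of 0.07 ± 0.15.

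The interferon-gamma axis, the classical inducer of Ciita, had mostly higher fitted levels in KO. Of its 10 tested genes 9 had a fold change above 0, and the median log2 fold change was 0.19. At an unadjusted p under 0.05, 4 were higher (6.45% of all genes). Ifng itself had too few reads to be tested.

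Class I presentation, the parallel route to CD8 T cells, had 0 of 7 genes past the edgeR threshold, 3 with DESeq2 and 1 with voom, where 1.82% and 1.29% of all genes were called higher. All 7 fold changes were above 0, 5 at an unadjusted p under 0.05 (6.45% of all genes were higher at that p), and the median was 0.32. Tap1, a subunit of the peptide transporter, had 143, 134 and 132 CPM in KO and 91.2, 83.8, 92.9 and 108 CPM in WT, with no overlap. Its log2 fold change was 0.54 ± 0.09 (edgeR adjusted p = 0.0521). Nlrc5, the class I transactivator and a relative of Ciita, stood at 0.47 ± 0.11 (edgeR adjusted p = 0.127). Tap1 lies on chromosome 17 from 34187553 to 34197225, between H2-DMb1 and H2-Ob, so neighbours in this region had fitted fold changes of opposite sign.

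Reads of Ciita were assigned to transcripts with different annotated starts. The annotation has 3 groups of Ciita starts on chromosome 16, from 10480059 to 10480164, from 10488178 to 10488279 and from 10489746 to 10489783. The middle group held 92.8 to 98.1% of Ciita reads in every library, the first 1.12 to 4.33% and the last 0.356 to 3.09%. The main transcript, Ciita-201, took 93.0, 92.4 and 91.1% of the gene's reads in KO and 93.9, 93.4, 93.4 and 93.8% in WT, without overlap (two-sided exact permutation p = 0.0571), and the groups overlapped when TPM shares were used. With 154 to 429 reads per library, the other starts rest on few reads. Ciita-201 alone is annotated to end at 10528418, and all others end at 10526426 or before. Reads past that point can be assigned only to Ciita-201, whichever start was used. The shares therefore do not show which start was used.

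Cd74 has a shorter and a longer protein form. Cd74-201 took 83.3 ± 0.716% of its reads in KO (SD, n = 3) and 82.1 ± 1.10% in WT (SD, n = 4; exact permutation p = 0.171), and Cd74-202 took 16.4 ± 0.738% and 17.7 ± 1.16% (exact permutation p = 0.171). The groups overlapped for both. Without WT library 1, they overlapped for neither.

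The genes most like the class II core over the 7 libraries were found by Pearson's r with the mean standardised level of H2-Aa, H2-Ab1, H2-Eb1 and Cd74, among the 13210 genes whose mean reached 1 CPM. Outside the set, the highest were St6gal1, a sialyltransferase (r = 0.994), Tlr1, a receptor of bacterial lipopeptides (r = 0.980), Bank1, a B cell scaffold (r = 0.975), Zap70, a T cell kinase (r = 0.974), and Scd1, a fatty acid desaturase (r = 0.973). These r values share 7 libraries and their scaling, include the difference between genotypes, and carry no p. Among the remaining members, H2-DMb2 had r = 0.966, Ciita 0.937, H2-Oa 0.891, H2-Ob 0.867, H2-DMb1 0.813 and H2-DMa 0.777.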

How the data were processed

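Strand-specific mRNA libraries of bone marrow were made for DNBSEQ sequencing, per the labels' protocols. The submitters' processing notes name FastQC 0.11.9, Salmon 1.7.0, DESeq2 and the build GRCm38.p6; the annotation release and Salmon options are not given in the sources used here. For each transcript the authors deposited an estimated count that need not be whole, a TPM value and an effective length (a number of bases, used only in an alternative). No file is normalized further.

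The 116546 transcripts were assigned to genes by identifier, without its version, from GENCODE vM21; 569 had no gene and held at most 0.0662% of any library's reads. A gene's value is the sum over its transcripts, and summed estimated counts were then rounded to whole numbers. Genes were filtered with filterByExpr, scaled with TMM and tested with the quasi-likelihood test of edgeR 4.0.16 (R 4.3.3), two-sided, with Benjamini-Hochberg adjustment over all 14238 tested genes. DESeq2 1.42.0 and limma 3.58.1 gave alternatives. SE is the log2 fold change over the root of the F value. Exact permutation tests enumerated all 35 assignments. The steps were also run on simulated counts, whose outcome is not given here. Named were every class II gene, of each list the genes past the threshold (at most 4) or else the 2 with the smallest p, and the 5 genes most like the class II core. Other promoters, genes and transcripts were named after their values were seen. The class II genes and the gene lists were chosen with earlier results of these data known. Promoter windows are RefSeq's; coordinates are GRCm38, counted from 1. Ifi30 was not analysed here, and some genes that the rule names and 1 further planned B cell index are not reported here.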

Additional observations from a re-analysis of the deposited data

How the results depend on the processing

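The count of class II genes past the adjusted threshold was 0 with edgeR under RLE scaling, reduced scaling, other filters, the length offset, summed H2-DMb copies and each library left out in turn (0 to 0), and 0 with limma on TPM; it was 4 with DESeq2 and 1 with voom. The number of all genes called, 92, was 405 with DESeq2, 305 with voom, 55 with the length offset, 49 and 50 with limma on log2(TPM + 0.1) and log2(TPM + 1), and 17 to 65 with 1 library left out. On these TPM scales 2 class II genes were lower at an unadjusted p under 0.05, and H2-DMa reversed to 0.0404 and 0.0392. The value of H2-DMb2 relative to the pan-B index, near 0, turned positive with the mature B index (0.15), with TPM (0.029) and when one of several libraries was left out: KO 2 (0.01), KO 3 (0.08), WT 2 (0.00068) and WT 3 (0.14), over a range of -0.11 to 0.14. The log2 ratio of H2-Aa to H2-Ab1, also near 0, turned positive with TPM (0.027) and without KO 2 (0.0201), WT 3 (0.01) or WT 4 (0.0035), over a range of -0.023 to 0.0201. Class II genes without overlap between the groups numbered 4 by CPM and 1 by TPM, a comparison chosen after seeing the data. Class II genes above 0 relative to B cells numbered 8 to 9. Transcripts of Ciita and Cd74 without overlap numbered 1, 0 with TPM shares, and 1 to 3 with each library left out. The cause of these shifts was not tested. With the replicate number as a block, 0 class II genes passed and 7 were lower at an unadjusted p under 0.05. In all, 21 genes were called. No label says that the numbers pair the libraries. Deviations of same-numbered libraries from their group means had r of 0.12, -0.04 and -0.27, which cannot settle whether they are paired.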

Other observations

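Transcript makeup differed between the class II genes. H2-Aa was assigned almost wholly to 1 protein-coding transcript, H2-Aa-201, with 95.0 to 99.0% of its reads. H2-Eb1 was split: the protein-coding H2-Eb1-203 took 36.6 to 47.0% of its reads and a transcript annotated as a target of nonsense-mediated decay took 33.3 to 51.2%, with retained-intron transcripts at 8.60 to 14.7% and 1.47 to 8.66%. The groups overlapped for each of these shares.

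H2-Ob reads fell mainly on H2-Ob-201, with 64.3 to 74.7%, and the retained-intron H2-Ob-207 took 12.5 to 19.5%. H2-DMb1-203, a transcript without a reading frame, ranged from 0% of H2-DMb1 reads in WT library 2 to 25.5% in WT library 1, a wider spread within WT than between the groups. H2-Oa-203, a retained-intron transcript, had 0, 0 and 1.51% of H2-Oa reads in KO and 4.70, 3.76, 3.50 and 2.88% in WT, from at most 9.17 estimated reads per library. These transcripts were picked after their values were seen.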
